A study of Mus musculus with 24 samples.

Results

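Chemokine genes were followed across 24 libraries of mouse 4T1-T mammary carcinoma cells. The members were every gene symbol made of Ccl or Cxcl, a number and at most 1 letter from a to d, together with Cx3cl1, which gave 37 of the 23478 symbols counted. Of these, 17 had 10 or more counts in at least 4 libraries and are called expressed here, and all 17 were among the 12625 genes that entered the tests. 4T1-T is a line of the 4T1 family, which comes from a mouse mammary carcinoma and is used as a model of spontaneous metastasis. The cells had been recovered either from primary tumors or from lung metastases, selected in 6-thioguanine, which kills host cells that keep the salvage enzyme Hprt, and infected with an shRNA. The hairpins were shAsns-1 and shAsns-2, both aimed at asparagine synthetase (Asns), or shRenilla as the control. The medium of all 6 groups was DMEM supplemented by non-essential amino acids, and every group had libraries A to D (n = 4): tumor shRenilla, tumor shAsns-1, tumor shAsns-2, lung shRenilla, lung shAsns-1 and lung shAsns-2. The labels do not say whether the letters stand for separate mice or cultures, so p-values measure the spread between libraries, which may be technical, and they do not say how many mice the recovered cells came from.

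Chemokines are small, mostly secreted proteins that guide leukocytes along a gradient through G-protein-coupled receptors on the migrating cell. Many are switched on by nuclear factor κB (NF-κB) downstream of interleukin-1 or tumor necrosis factor, or by interferons. Carcinoma cells can make them, and tumors of the 4T1 family are known for drawing in granulocytes and monocytes. The members are described below by the receptor they are known to bind.

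Asns went against its label in part: it averaged 82.8 CPM (counts per 1000000 counts of a library, TMM-scaled) in tumor shRenilla, 36.8 in tumor shAsns-2 and 170.4 in the tumor libraries labelled shAsns-1, and 63.6, 44.6 and 194 CPM in the 3 lung groups in that order. Because Asns was higher, not lower, with the first hairpin, those libraries are called by their label only. Libraries held 8480908 to 38049196 counts, and chemokine genes took 0.0294 to 0.125% of them. Hprt RNA was counted in every library, at 400 to 799 CPM, and RNA does not show whether the enzyme was active. The epithelial genes Krt8, Krt18, Cdh1 and Epcam were counted in every library, with summed levels of the 8 epithelial markers between 378 and 1028 CPM. Leukocyte markers summed to 1.75 to 12.2 CPM over 11 genes, with Cd3e at 0 in 22 libraries and Nkg7 at 0 in all 24. Lyz2, Cd68, Cd74 and Ptprc of the same list were counted in every library, at up to 7.84, 2.67, 1.78 and 0.562 CPM. Library B of lung shRenilla and library D of lung shAsns-2 lay farthest from the rest of their groups, with median distances of 0.32 and 0.26 on the log2 scale over genes, against at most 0.23 for the other 22. These distances were taken before TMM scaling, whose factors were 0.9081 and 1.087 for the pair, and were not repeated after it. Calls that change without this far pair are given beside the member. In such bulk RNA, fewer cells of a type and less RNA per cell cannot be told apart.

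Promoter sequence was taken from RefSeq windows of 250 bases before to 50 bases after a start site (build GRCm38.p6), which covered 10 of the 17 expressed members. The 110 bases before the start are printed for 5 members with a match to the NF-κB consensus and for Ccl6, which has none in the window. Capitals mark matches to that 10-base consensus on either strand, and a run of 11 capitals is a pair of overlapping matches. In Cxcl1, Cxcl2 and Cxcl3 the matches of the pair lie on opposite strands, whereas in Cxcl10 both can be read on the printed strand. RefSeq starts can differ from those of the GENCODE gene models used for positions below. The stretches lie at chr5:90891135-90891244, plus strand (Cxcl1), chr5:90903789-90903898, plus strand (Cxcl2), chr5:90785991-90786100, plus strand (Cxcl3), chr5:92348890-92348999, minus strand (Cxcl10), chr1:83116656-83116765, plus strand (Ccl20) and chr11:83593088-83593197, minus strand (Ccl6).
Cxcl1: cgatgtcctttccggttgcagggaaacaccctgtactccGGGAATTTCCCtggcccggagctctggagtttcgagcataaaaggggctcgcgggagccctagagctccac
Cxcl2: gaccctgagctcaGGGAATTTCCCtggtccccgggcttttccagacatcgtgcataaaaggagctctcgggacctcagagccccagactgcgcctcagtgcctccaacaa
Cxcl3: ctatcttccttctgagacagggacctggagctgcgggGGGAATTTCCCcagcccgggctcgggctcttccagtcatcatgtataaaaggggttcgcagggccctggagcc
Cxcl10: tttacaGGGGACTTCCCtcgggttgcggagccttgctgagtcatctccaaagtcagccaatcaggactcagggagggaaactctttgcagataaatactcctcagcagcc
Ccl20: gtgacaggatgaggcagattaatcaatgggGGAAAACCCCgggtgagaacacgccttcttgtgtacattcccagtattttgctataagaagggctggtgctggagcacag
Ccl6: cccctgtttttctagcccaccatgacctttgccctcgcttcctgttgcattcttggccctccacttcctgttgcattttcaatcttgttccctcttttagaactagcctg
Cxcl1, Cxcl2 and Cxcl3 hold the same 11 letters, beginning 71, 97 and 73 bases before the start. In Cxcl10 the capitals begin 104 bases before the start, and another match lies outside the printed stretch, 159 bases before it. The match begins 80 bases before the start in Ccl20. Ccl9, not printed, has 1 match that begins 35 bases before its start. In all, 6 of the 10 expressed members with a window hold a match, against 8.46% of the 32851 windows of the same length. On either strand, the AP-1 letters TGANTCA were found in 3 of the 10 (Ccl9, Cxcl9 and Cxcl10) and in 7.81% of all windows, and the core of the interferon-stimulated response element in 1 of the 10 (Cxcl10) and in 3.44%. These are matches of letters, not sites shown to be bound, and the missing match in Ccl6 says nothing of more distant sequence. Ccl2, Ccl4, Ccl5, Ccl7, Cxcl5, Cxcl11 and Cxcl16 were not covered.

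Per kilobase of merged exon, Ccl2 was the highest chemokine RNA, with a mean of 190 CPM per kb over the 24 libraries, followed by Cxcl5 at 99.8 and Cxcl1 at 84.1 CPM per kb. Ccl7 (25.2 CPM per kb) and Ccl5 (22.9) came next, then Cxcl16 (8.95) and Cxcl10 (5.16). The other 10 expressed members averaged under 2 CPM per kb, down to 0.135 for Cxcl9. These lengths depend on the gene models: exons of Cxcl1, Cxcl2, Cxcl3 and Cxcl10 merge into 1 block over the whole gene. A spliced transcript can be shorter, which would raise the level per kb of these genes, and their ranks are uncertain. In CPM without a length, Ccl2 (216), Cxcl5 (186) and Cxcl1 (158) kept their order over the 24 libraries. In tumor shRenilla the ranges of Cxcl5 (147 to 209 CPM per kb) and Cxcl1 (155 to 220.4) overlapped almost fully, and the lowest Ccl2 library (205) lay within both. The order was not the same in each group: in lung shRenilla, Ccl2 (158 to 225 CPM per kb) lay above all Cxcl5 (50.9 to 95.1) and all Cxcl1 libraries (38.8 to 51.5).

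**Figure D1:**
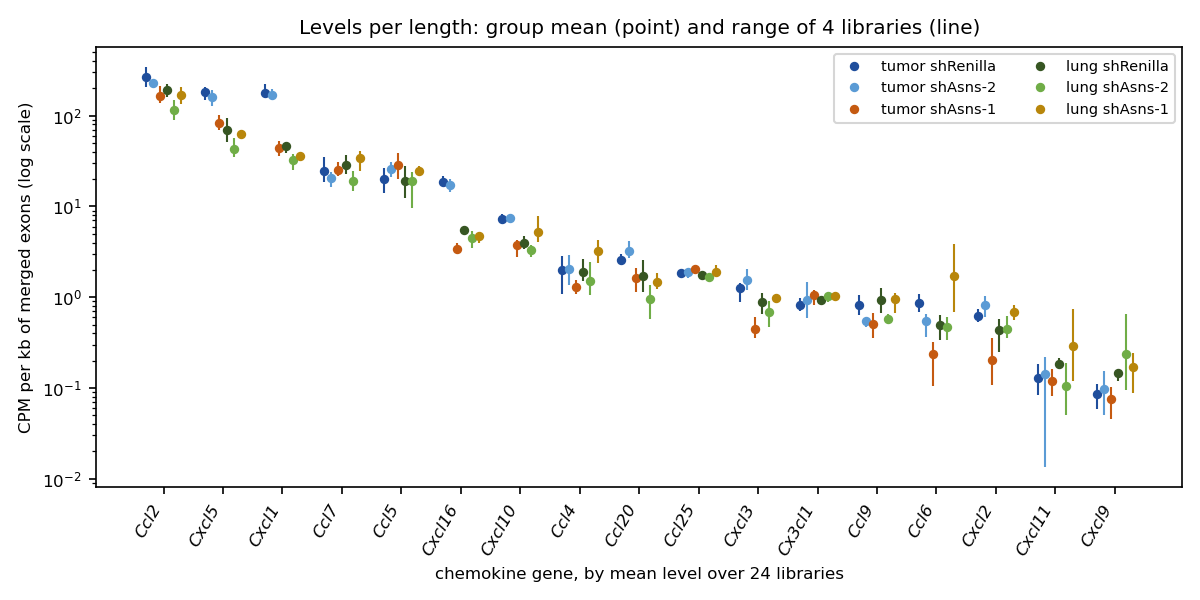
Level of each expressed chemokine gene per kilobase of merged exon (CPM per kb, log axis), with the mean of 4 libraries as a point and their range as a line for each of the 6 groups. Ccl2 stays near the top in every group, while Cxcl1, Cxcl5 and Cxcl16 split into a higher pair of groups (tumor shRenilla and tumor shAsns-2) and 4 lower ones.

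Together, Ccl2, Cxcl1 and Cxcl5 made up 73.7 to 89.4% of the summed chemokine level in every library. The sum over all 37 members was 1121 ± 192.9 CPM in tumor shRenilla (mean ± SD, n = 4 libraries, as for all groups) and 1017 ± 89.51 in tumor shAsns-2. It was 518.3 ± 81.23 CPM in the tumor libraries labelled shAsns-1, 528.6 ± 68.31 in lung shRenilla, 490 ± 64.62 in the lung libraries labelled shAsns-1 and 353.1 ± 61.62 in lung shAsns-2. Their shares of the sum were described without a test. Cxcl1 was 29.67 ± 2.238% of the sum in tumor shRenilla and 31.17 ± 2.231% in tumor shAsns-2, but 12.3 to 19.67% in the libraries of the other 4 groups. Ccl2 took 26.86 ± 2.815% in tumor shRenilla and 40.79 ± 2.166% in lung shRenilla.

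The other 20 members were not expressed by the stated rule. Ccl21a, Ccl21b, Ccl21c, Ccl26 and Ccl27b had no count in any library. Ccl1, Ccl8, Ccl12, Ccl17, Ccl19, Ccl22, Ccl24, Ccl27a, Ccl28, Cxcl13 and Cxcl17 stayed below 10 counts in every library, the highest being 9 for Ccl17 and 8 for Cxcl17. Ccl3, Ccl11, Cxcl12 and Cxcl14 reached 10, 15, 32 and 21 counts, each in the same library, lung shAsns-1 D.

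**Figure D2:**
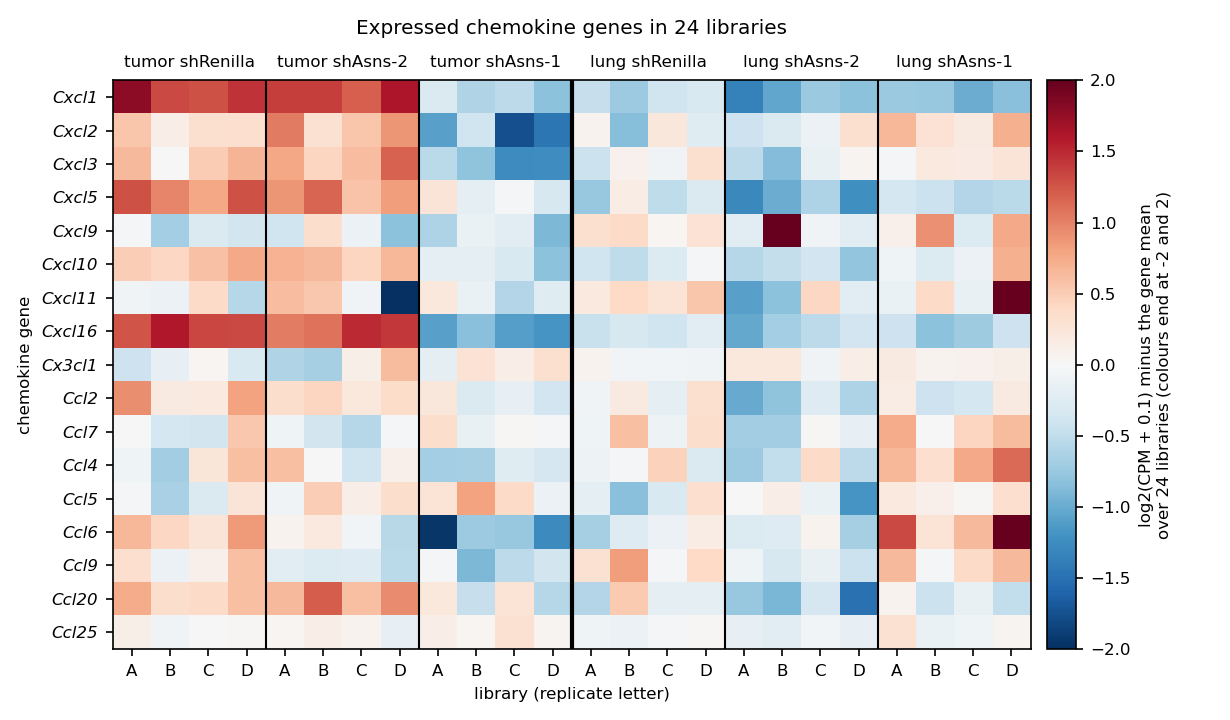
Level of the 17 expressed chemokine genes in each library, as log2(CPM + 0.1) minus the gene's mean over the 24 libraries (red higher, blue lower, colours ending at -2 and 2). Red cells of Cxcl1, Cxcl5, Cxcl10 and Cxcl16 fill the 8 libraries of tumor shRenilla and tumor shAsns-2, and the highest values of Ccl6 and Cxcl11 (6.83 and 2.82 CPM) lie in lung shAsns-1 D.

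Chemokine RNA was lower in tumor-derived cells labelled shAsns-1 than in tumor shRenilla: 10 of the 17 expressed members fell and 0 rose by edgeR's quasi-likelihood test (Benjamini-Hochberg adjusted p under 0.05 over all genes tested). Over all genes, 33.9% were called in this comparison, 17.7% lower and 16.2% higher. The median log2 fold change was -0.70 over the 17 members and -0.01 over all genes tested. In 8 of the 17 the ranges of the 2 groups did not overlap, against 37.2% of all genes. Against tumor shAsns-2, 7 members were lower and 0 higher in the same libraries (27.1% of all genes called, 15% lower), and 8 had ranges apart (29.7% of all genes). Tumor shAsns-2 itself differed from tumor shRenilla in 0 members by edgeR, DESeq2 and limma, with 1 at an unadjusted p under 0.05 and 0.0634% of all genes called. Both sets of shAsns-1 calls use libraries in which 6 of the 8 epithelial markers also fell against tumor shRenilla. The summed epithelial markers were 455 to 611 CPM in the tumor libraries labelled shAsns-1 and 725 to 884 in tumor shRenilla, fibroblast markers 24.1 to 32.5 against 17.6 to 21.2, and leukocyte markers 1.75 to 3.31 against 2.94 to 5.01. Of the 5 fibroblast markers tested, Pdgfra was called higher and Postn lower, with a median log2 fold change of -0.14. Here and below, Pdgfra weighs most in the fibroblast sums. It ranged from 14.5 to 48.1 CPM over all libraries, and no other fibroblast marker exceeded 8.61 CPM (Dcn). Of 4 leukocyte markers tested, Cd68 and Cd74 were called lower and 0 higher. The part of these markers in the chemokine changes was not tested.

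Lung-derived control cells had lower levels of 4 of the 17 members than tumor-derived control cells and higher levels of 0 (21.8% of all genes called, 9.82% lower). With shAsns-2 the count was 8 lower and 0 higher between the sites (20.9% of all genes called, 10.9% lower). With shAsns-1 the direction was the opposite: 6 members were higher in lung and 0 lower (8.55% of all genes called, 6% higher). Tested directly, the change from shRenilla to shAsns-1 differed between the sites in 8 members, always as a more positive change in lung (14.2% of all genes called, 6.96% higher). For shAsns-2 that difference was called for 0 members by edgeR, DESeq2 and limma, with 3 at an unadjusted p under 0.05 and 0% of all genes called. Within the lung groups, Ccl6 alone was called by edgeR, higher with shAsns-1 than with shRenilla (0.206% of all genes called, 0.0713% higher) and than with shAsns-2 (0.261% called, 0.143% higher). These counts of 1 depended on the tool and setting: they ran from 0 to 2 against shRenilla, where limma also called Cxcl1, and from 0 to 10 against shAsns-2, with 2 by DESeq2 (Ccl7 beside Ccl6) and 10 by limma. Lung shAsns-2 against lung shRenilla gave 0 calls by edgeR and by DESeq2 (0% of all genes called by edgeR), 7 members at an unadjusted p under 0.05 and 6 lower members by limma. Called or not, 14 of the 17 members had a negative and 3 a positive log2 fold change there. The median was -0.33, beside -0.01 over all genes. The summed chemokine level was 290.5 to 437.9 CPM in lung shAsns-2 and 466.7 to 596.3 in lung shRenilla, without overlap. Epithelial markers fell between the sites too: 5 of 8 were lower in lung with shRenilla, 5 with shAsns-2 and 4 with shAsns-1. Fibroblast markers summed to 26.3 to 51.5 CPM in lung against 17.6 to 21.2 in tumor with shRenilla, 34.3 to 69.9 against 24.1 to 32.5 with shAsns-1, and 24.1 to 27.5 against 19.2 to 23.4 with shAsns-2, without overlap. The fibroblast sums again rest mainly on Pdgfra. Of the 5 fibroblast genes tested, 2 were higher and 1 lower in lung with shRenilla, 3 higher with shAsns-1, and 1 higher and 1 lower with shAsns-2. Of 4 leukocyte markers tested, 1, 2 and 1 were called higher in lung with shRenilla, shAsns-1 and shAsns-2 and 0 lower, and with shAsns-2 their sums overlapped (3.42 to 5.65 CPM in lung, 3.90 to 5.10 in tumor). The part of these lists in the chemokine counts was not tested. Ranges that did not overlap were counted as well. In tumor shAsns-2 against tumor shRenilla 2 of the 17 members had them (3.33% of all genes). The counts in lung were 2 for shAsns-1 against shRenilla (10.9%), 3 for shAsns-2 against shRenilla (3.17%) and 4 for shAsns-1 against shAsns-2 (5.39%). Lung against tumor gave 6 with shRenilla (22.2%), 7 with shAsns-1 (29.9%) and 7 with shAsns-2 (18.2%). These comparisons share groups, tumor shRenilla and lung shRenilla among them, so their counts are not independent of each other.

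**Figure D3:**
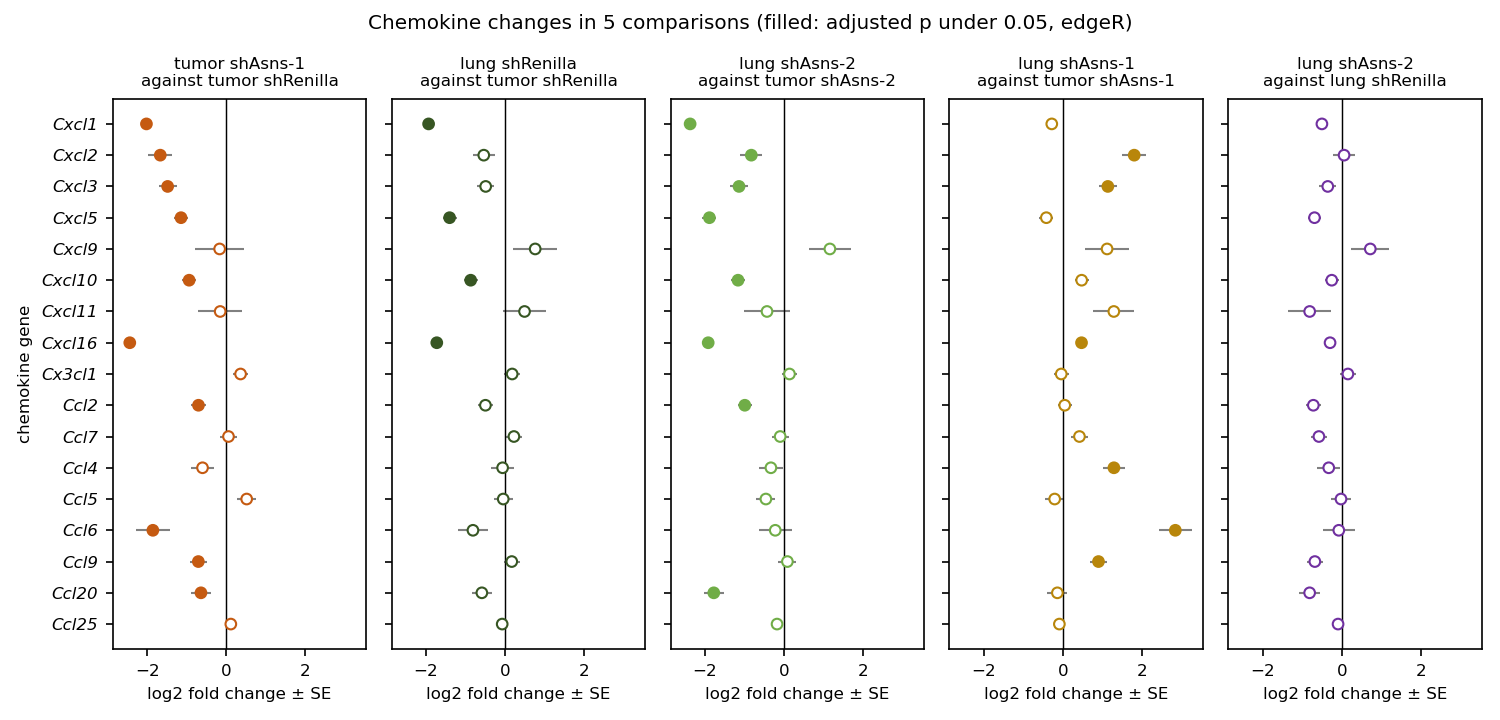
Log2 fold change with its standard error for the 17 expressed chemokine genes in 5 comparisons (filled points have an adjusted p under 0.05 in edgeR). Filled points lie to the left of 0 in the first 3 panels and to the right in the fourth, and the last panel, lung shAsns-2 against lung shRenilla, has none filled.

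Among the ligands of Cxcr2, the receptor that draws neutrophils, Cxcl1 had the largest fall on the log scale in tumor cells labelled shAsns-1. Its gene lies with Cxcl5, Cxcl3 and Cxcl2 in a cluster on chromosome 5 (GRCm38: Cxcl5 at chr5:90759360-90761624, Cxcl3 at chr5:90786103-90789600, Cxcl1 at chr5:90891241-90893115 and Cxcl2 at chr5:90903871-90905938). Here and below, the 4 values of a group are CPM in libraries A, B, C and D. Cxcl1 measured 413, 298, 291 and 325 CPM in tumor shRenilla and 313, 313, 275 and 368 CPM in tumor shAsns-2. The tumor libraries labelled shAsns-1 had 97.9, 79.0, 83.1 and 67.9 CPM, far below the lowest of those 8. The drop from 332 ± 56.4 to 82.0 ± 12.4 CPM was a log2 fold change of -2.02 ± 0.14 SE (edgeR adjusted p = 4.99e-11), and against shAsns-2 it was -1.95 ± 0.14 (adjusted p = 1.11e-10). Between shAsns-2 and shRenilla it was -0.06 ± 0.14, with a 95% interval of -0.33 to 0.20. In lung-derived cells the values were 87.3, 72.7, 90.4 and 96.6 CPM with shRenilla, 46.8, 58.3, 71.7 and 68.0 with shAsns-2 and 71.5, 71.1, 59.9 and 67.3 with shAsns-1. All 12 were below every tumor shRenilla and tumor shAsns-2 library. Lung against tumor gave -1.93 ± 0.14 with shRenilla (adjusted p = 1.33e-10) and -2.37 ± 0.14 with shAsns-2 (adjusted p = 6.06e-12), and for the libraries labelled shAsns-1 -0.28 ± 0.14 (adjusted p = 0.197). The change with shAsns-1 differed between the sites by 1.65 ± 0.20 (adjusted p = 1.85e-06).

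Cxcl5, another neutrophil attractant, overlapped Cxcl1 in level per kb in the control tumor cells. It measured 389.7, 315, 274 and 387 CPM there and 296, 359, 237 and 288 CPM with shAsns-2. It measured 192, 141, 157 and 129 CPM in the tumor libraries labelled shAsns-1, all below the other 8 tumor libraries. The fall from 341 ± 56.8 to 155 ± 27.0 CPM (-1.14 ± 0.17, adjusted p = 1.55e-05 by edgeR) was smaller on the log scale than that of Cxcl1, a difference between genes that was not tested. Lung-derived cells gave 94.9, 177, 112 and 131 CPM with shRenilla, 65.5, 80.3, 105 and 68.7 with shAsns-2 and 126, 119, 107 and 110.1 with shAsns-1. Lung shRenilla B stood above the other 3 control libraries, yet all 4 were below tumor shRenilla (-1.40 ± 0.18, adjusted p = 1.18e-06 by edgeR). With shAsns-2 the site difference was -1.89 ± 0.18, adjusted p = 1.57e-08 by edgeR. Lung libraries labelled shAsns-1 were also all below the tumor libraries of that label, but that difference was not called (-0.42 ± 0.17, adjusted p = 0.125) and became so by limma (adjusted p = 0.0192), when other groups were left out of the fit (0.00976) and without the far pair (0.0413). The test of unequal change between sites gave 0.98 ± 0.24, adjusted p = 0.0078 by edgeR.

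Cxcl3 and Cxcl2 averaged 0.966 and 0.540 CPM per kb, far below their neighbours. Cxcl3 measured 4.90, 3.10, 4.44 and 5.01 CPM in tumor shRenilla, 5.38, 4.20, 4.82 and 7.13 in tumor shAsns-2 and 2.10, 1.73, 1.24 and 1.25 in the tumor libraries labelled shAsns-1. The last group lay below both others (-1.48 ± 0.23, adjusted p = 1.45e-05 against shRenilla by edgeR, and -1.77 ± 0.23, adjusted p = 2.17e-06 against shAsns-2). In lung it measured 2.27, 3.27, 2.94 and 3.87 CPM with shRenilla, 2.12, 1.64, 2.77 and 3.20 with shAsns-2 and 3.01, 3.54, 3.48 and 3.71 with shAsns-1. The lung libraries labelled shAsns-1 were all above the tumor libraries of the same label (1.14 ± 0.23, adjusted p = 0.00276 by edgeR), whereas with shAsns-2 lung was lower than tumor (-1.14 ± 0.22, adjusted p = 0.000435). With shRenilla the sites overlapped (-0.49 ± 0.21, adjusted p = 0.101).

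Cxcl2, whose product is close in sequence to those of Cxcl1 and Cxcl3, measured 1.52, 1.10, 1.27 and 1.30 CPM in tumor shRenilla, 2.15, 1.26, 1.53 and 1.92 in tumor shAsns-2 and 0.419, 0.732, 0.225 and 0.305 in the tumor libraries labelled shAsns-1. No library of that last group reached the lowest of the others (-1.67 ± 0.31, adjusted p = 0.000154 against shRenilla by edgeR). The lung values were 1.06, 0.513, 1.18 and 0.834 CPM with shRenilla, 0.728, 0.805, 0.911 and 1.28 with shAsns-2 and 1.64, 1.25, 1.15 and 1.70 with shAsns-1. With shAsns-1 lung was above tumor in every library (1.80 ± 0.30, adjusted p = 0.000544 by edgeR), and the change with that hairpin differed between sites (2.34 ± 0.41, adjusted p = 0.000316 for Cxcl2 and 1.63 ± 0.31, adjusted p = 0.000807 for Cxcl3). Lung shAsns-2 was lower than tumor shAsns-2 with ranges that overlapped (-0.83 ± 0.28, adjusted p = 0.036 by edgeR), and this call ended in 8 of 16 alternatives (adjusted p 0.00134 to 0.121 over all). It ended without tumor shAsns-2 A (0.0907), C (0.0571) or D (0.107), without lung shAsns-2 A (0.121), B (0.113) or C (0.0787), without a filter on low counts (0.0521) and when other groups were left out of the fit (0.0637). Cxcl2 and Cxcl3 share 5.84 and 4.24% of their stretches of 50 bases, mostly with each other, so a small part of their reads cannot be assigned with certainty.

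**Figure D4:**
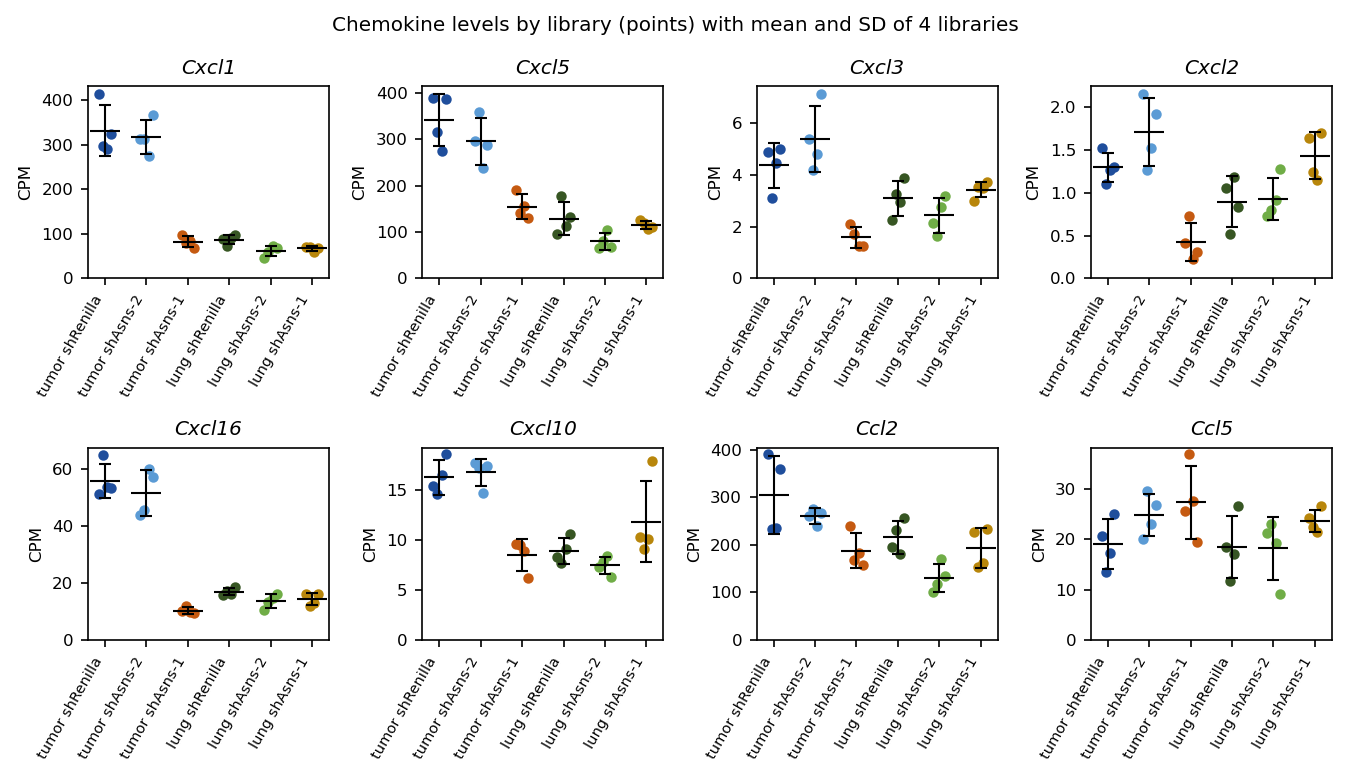
CPM in each library (points) with the mean and SD of 4 libraries (lines) for 8 chemokine genes in the 6 groups. For Cxcl1, Cxcl5, Cxcl16 and Cxcl10 the tumor shRenilla and tumor shAsns-2 points lie above the tumor shAsns-1 points with no overlap, while the Ccl5 points of all groups overlap.

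Of the 10 members that fell in tumor cells labelled shAsns-1, Cxcl16 fell most on the log scale. It encodes a chemokine with a membrane anchor that binds Cxcr6, and lies at chr11:70453983-70459984. Tumor shRenilla measured 51.0, 64.6, 53.7 and 53.4 CPM, tumor shAsns-2 43.6, 45.6, 59.9 and 57.0 and the tumor libraries labelled shAsns-1 9.99, 11.9, 9.92 and 9.36. The group mean went from 55.7 ± 6.08 to 10.3 ± 1.09 CPM (-2.44 ± 0.14, adjusted p = 2.62e-12 by edgeR), and the difference from shAsns-2 was -2.33 ± 0.14 (adjusted p = 4.02e-12). Lung cells measured 15.6, 17.1, 16.1 and 18.4 CPM with shRenilla, 10.5, 13.2, 14.8 and 16.2 with shAsns-2 and 16.0, 12.0, 13.0 and 16.0 with shAsns-1. These were all below the 8 higher tumor libraries, and the sites differed with shRenilla (-1.73 ± 0.14, adjusted p = 3.98e-10) and with shAsns-2 (-1.92 ± 0.14, adjusted p = 1.14e-10) by edgeR. In the libraries labelled shAsns-1 lung was above tumor (0.47 ± 0.14, adjusted p = 0.0322), and the change with that hairpin differed between sites (2.20 ± 0.19, adjusted p = 1.83e-08). The lung against tumor call with shAsns-1 ended in 5 of 16 alternatives (adjusted p 0.00738 to 0.13), namely without tumor shAsns-1 A (0.0847), C (0.0811) or D (0.11) and without lung shAsns-1 A (0.112) or D (0.13). Exons of Cxcl16 overlap those of Zmynd15 on the opposite strand over 552 bases, and the strand setting of the counting is not given in the sources used here.

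Per kb, Cxcl10 was the most abundant of the 3 ligands of Cxcr3, a receptor on activated T cells and natural killer cells, and interferons are its best known inducers. It measured 15.4, 14.6, 16.5 and 18.6 CPM in tumor shRenilla and 17.7, 17.2, 14.7 and 17.5 in tumor shAsns-2. With the shAsns-1 label it measured 9.57, 9.52, 8.85 and 6.16 CPM, below all 8 (-0.94 ± 0.17, adjusted p = 0.000164 against shRenilla by edgeR, and -0.97 ± 0.17, adjusted p = 0.000169 against shAsns-2). Its lung values were 8.26, 7.67, 9.07 and 10.6 CPM with shRenilla, 7.35, 7.83, 8.37 and 6.29 with shAsns-2 and 10.3, 9.07, 10.1 and 17.9 with shAsns-1. Library D of the last group stood at 17.9 CPM, as high as tumor shRenilla, while its other 3 libraries lay within the range of the lung controls. Lung was lower than tumor with shRenilla (-0.87 ± 0.17, adjusted p = 0.000542 by edgeR) and with shAsns-2 (-1.16 ± 0.18, adjusted p = 2.38e-05). With shAsns-1, lung against tumor was not called (0.47 ± 0.17, adjusted p = 0.0841 by edgeR), but was without the far pair (adjusted p = 0.0418) and by limma (0.0277). The site difference of the shAsns-1 change was 1.34 ± 0.24, adjusted p = 0.00045, and 1.08 (adjusted p = 0.00125) without lung shAsns-1 D. Exons of Cxcl10 and of Art3 on the opposite strand share 133 bases. The other Cxcr3 ligands, Cxcl9 and Cxcl11, ranged from 0.139 to 1.95 CPM and from 0.0506 to 2.82 CPM and were called by edgeR in none of the 11 comparisons. Limma called Cxcl11 higher in lung shAsns-1 than in lung shAsns-2 (1.37, adjusted p = 0.036), and without the far pair edgeR called Cxcl9 higher in lung than in tumor with shAsns-2 (1.40, adjusted p = 0.0397, against 1.16 ± 0.53, adjusted p = 0.122 with all libraries). Their highest libraries were lung shAsns-2 B for Cxcl9 and lung shAsns-1 D for Cxcl11.

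Ccl2, the main attractant of inflammatory monocytes through Ccr2, lies next to Ccl7, another Ccr2 ligand (chr11:82035571-82037453 and chr11:82045712-82047525). Ccl2 measured 391, 234, 236 and 360.3 CPM in tumor shRenilla, 261, 277, 239 and 266 in tumor shAsns-2 and 241, 168, 184 and 158 in the tumor libraries labelled shAsns-1. The control values fell in a lower and a higher pair, and library A with shAsns-1 lay just above the lower pair, so the ranges overlapped. The mean fell from 305 ± 82.3 to 188 ± 36.9 CPM (-0.70 ± 0.18, adjusted p = 0.00408 by edgeR). Against shAsns-2 the difference missed the threshold (-0.47 ± 0.18, adjusted p = 0.0534), and was called without the far pair (adjusted p = 0.0412), by limma (0.0454), with a replicate block (0.0447) and when other groups were left out of the fit (0.0131). Lung libraries measured 196, 231, 180.3 and 256 CPM with shRenilla, 102, 118, 171 and 134 with shAsns-2 and 226, 154, 161 and 233 with shAsns-1. All 4 lung shAsns-2 libraries were below lung shRenilla, a difference that edgeR did not call (-0.72 ± 0.18, adjusted p = 0.279) and limma did (-0.78, adjusted p = 0.00195). They were also below tumor shAsns-2 (-0.99 ± 0.18, adjusted p = 0.000281 by edgeR). Lung against tumor with shRenilla missed the threshold narrowly (-0.50 ± 0.18, adjusted p = 0.0501 by edgeR), and was called by DESeq2 (adjusted p = 0.0441), by limma (0.023), with a filter of 10 counts in 4 libraries (0.0457) and without the far pair (0.0434).

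Its neighbour Ccl7 ranged from 11.9 to 32.5 CPM over the 24 libraries and was called by edgeR in no comparison. In tumor cells labelled shAsns-1 it averaged 20.3 ± 3.25 CPM, against 19.5 ± 6.24 in tumor shRenilla (0.06 ± 0.21, 95% interval -0.35 to 0.47). Whether Ccl2 and Ccl7 changed unequally was not tested. In lung, Ccl7 was 22.7 ± 5.46 CPM with shRenilla, 27.1 ± 5.67 with shAsns-1 and 15.2 ± 3.90 with shAsns-2. Lung shAsns-1 against lung shAsns-2 gave 0.83 ± 0.21 (adjusted p = 0.109 by edgeR), which DESeq2 called (0.0441), as did limma (0.000785) and edgeR without the far pair (0.0354).

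Ccl4 and Ccl5 attract T cells and macrophages. Ccl4 measured 1.15, 0.713, 1.47 and 1.89 CPM in tumor shRenilla, 1.91, 1.21, 0.901 and 1.32 in tumor shAsns-2 and 0.725, 0.732, 1.01 and 0.944 in the tumor libraries labelled shAsns-1. All 3 groups overlapped. Lung values were 1.14, 1.19, 1.72 and 0.983 CPM with shRenilla, 0.697, 0.836, 1.63 and 0.817 with shAsns-2 and 1.98, 1.56, 2.14 and 2.78 with shAsns-1. With shAsns-1 every lung library was above every tumor library (1.29 ± 0.29, adjusted p = 0.00647 by edgeR). The change with shAsns-1 differed between the sites (1.35 ± 0.41, adjusted p = 0.0262), a call that ended in 5 of 24 alternatives (adjusted p 0.0116 to 0.066): without tumor shAsns-1 A (0.0515) or B (0.0503), tumor shRenilla D (0.066), lung shAsns-1 D (0.0637) or lung shRenilla D (0.052). Ccl5 ranged from 9.20 to 36.9 CPM and was called by edgeR in no comparison. Tumor libraries labelled shAsns-1 averaged 27.4 ± 7.24 CPM against 19.1 ± 4.98 in tumor shRenilla (0.52 ± 0.24, adjusted p = 0.0971), which was called when other groups were left out of the fit (adjusted p = 0.0437) and without the far pair (0.0217).

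Ccl6 and Ccl9, mouse ligands of Ccr1 on myeloid cells, lie near each other on chromosome 11 (chr11:83587882-83593087 and chr11:83572919-83578636). Ccl6 measured 1.67, 1.39, 1.23 and 1.93 CPM in tumor shRenilla, 1.08, 1.18, 0.971 and 0.658 in tumor shAsns-2 and 0.191, 0.578, 0.564 and 0.361 in the tumor libraries labelled shAsns-1. The control libraries were above both other groups, and the fall with shAsns-1 was called (-1.85 ± 0.43, adjusted p = 0.00145 by edgeR). Lung values were 0.606, 0.834, 0.932 and 1.13 CPM with shRenilla, 0.823, 0.836, 1.07 and 0.604 with shAsns-2 and 2.70, 1.25, 1.66 and 6.83 with shAsns-1. The last group lay above the other 2 with a spread set by library D. Against lung shRenilla the difference was 1.80 ± 0.38, adjusted p = 0.0359 by edgeR, and 1.09 (adjusted p = 0.241) without lung shAsns-1 D. That call ended in 10 of 16 alternatives (adjusted p 0.00333 to 0.372), without the far pair among them (0.0842), and leaving out any single control library A (0.125), B (0.155), C (0.0715) or D (0.0634) or lung shAsns-1 A (0.0556) was enough. Against lung shAsns-2 it was 1.88 ± 0.38, adjusted p = 0.0207, 1.14 (adjusted p = 0.33) without lung shAsns-1 D, and it ended without lung shAsns-2 A (0.0814), B (0.117) or C (0.0739) as well (adjusted p 0.00226 to 0.372 over 16 alternatives). The lung against tumor difference with shAsns-1 was 2.84 ± 0.41, adjusted p = 0.000108, and still 2.11 (adjusted p = 0.0004) without lung shAsns-1 D. For the difference between sites of the shAsns-1 change the values were 3.66 ± 0.57, adjusted p = 7.04e-05, and 2.94 (adjusted p = 4.93e-05) without that library.

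Ccl9 measured 2.67, 1.92, 2.27 and 3.22 CPM in tumor shRenilla, 1.79, 1.73, 1.73 and 1.42 in tumor shAsns-2 and 2.06, 1.08, 1.44 and 1.61 in the tumor libraries labelled shAsns-1. The fall with shAsns-1 (-0.70 ± 0.21, adjusted p = 0.013 by edgeR) came with overlapping ranges and ended without tumor shAsns-1 B (adjusted p = 0.0535) or tumor shRenilla D (0.057), of 16 alternatives that ran from 0.00487 to 0.057. With shAsns-2 the values were below all 4 control libraries but were not called (-0.60 ± 0.22, adjusted p = 0.546). In lung it measured 2.61, 3.85, 2.04 and 2.80 CPM with shRenilla, 1.96, 1.67, 1.89 and 1.53 with shAsns-2 and 3.35, 2.06, 2.78 and 3.36 with shAsns-1. Lung libraries labelled shAsns-1 were level with or above the highest of that label in tumor (0.90 ± 0.21, adjusted p = 0.00985 by edgeR). The change with shAsns-1 was not shown to differ between the sites (0.73 ± 0.30, adjusted p = 0.0971 by edgeR), but the difference was called without the far pair (0.92, adjusted p = 0.0208) and by limma (0.83, adjusted p = 0.0188).

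**Figure D5:**
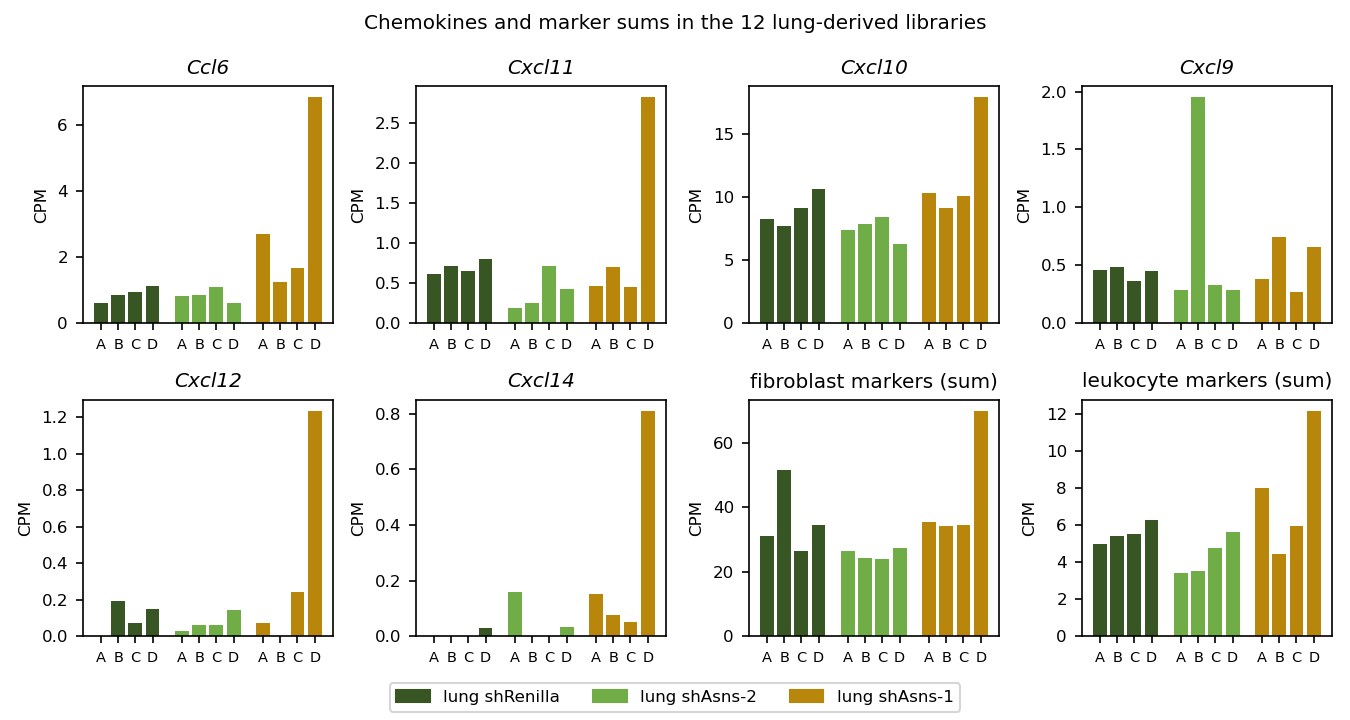
CPM of Ccl6, Cxcl11, Cxcl10, Cxcl9, Cxcl12 and Cxcl14 and the summed CPM of fibroblast and leukocyte markers in the 12 lung-derived libraries (bars from 0, 1 per library, coloured by hairpin). Lung shAsns-1 D has the tallest bar in every panel except Cxcl9, where lung shAsns-2 B has it at 1.95 CPM.

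Library D of lung shAsns-1 stood apart for several members, and the summed fibroblast and leukocyte markers stood apart with it. Its 9 fibroblast markers summed to 69.9 CPM, against 34.3 to 35.4 in libraries A to C of its group, 26.3 to 51.5 in lung shRenilla and 24.1 to 27.5 in lung shAsns-2. Its 11 leukocyte markers summed to 12.2 CPM against 4.44 to 8.03, 5.00 to 6.32 and 3.42 to 5.65 in the same groups. Genes picked after their values were seen are examples from these sums: Dcn was 2.40, 2.92, 1.31 and 8.61 CPM over the 4 libraries and Lyz2 4.11, 1.36, 2.59 and 7.84. Over these 4 libraries Ccl6 and Lyz2, a lysozyme gene of macrophages and granulocytes, had the same order from lowest to highest. For a gene picked by its values, an order over 4 libraries is no test of a link. Of the other leukocyte genes, Cd68 was 2.06, 1.87, 1.61 and 1.97 CPM, in a different order. Cd74 was 1.41, 0.701, 0.936 and 1.78, in the same order. In library D, Emr1, Cd3e and Nkg7 had no count, and Ptprc was 0.309 CPM. The 18 interferon-response genes summed to 282.57 CPM in library D, against 192.08 to 211.54 in libraries A to C and 177.31 to 231.14 in the other lung groups. The 6 endothelial markers did not stand apart. They summed to 1.20 CPM in library D, against 0.685 to 1.12 in libraries A to C and up to 1.46 in lung shAsns-2. The part of these lists in the levels of Ccl6, Cxcl10 and Cxcl11 was not tested.

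Ccl20, the ligand of Ccr6 on some dendritic cells and lymphocytes, measured 4.23, 3.21, 3.27 and 3.82 CPM in tumor shRenilla, 3.94, 5.87, 3.85 and 4.91 in tumor shAsns-2 and 2.90, 1.77, 3.02 and 1.64 in the tumor libraries labelled shAsns-1. The last group was below both others (-1.01 ± 0.25, adjusted p = 0.00336 against shAsns-2 by edgeR). Against shRenilla the call was narrow (-0.64 ± 0.24, adjusted p = 0.0452) and ended in 6 of 16 alternatives (adjusted p 0.00715 to 0.152). These were DESeq2 size factors in edgeR (0.0512), and the removal of library B (0.128) or D (0.152) with shAsns-1, or of control library A (0.12), B (0.0522) or D (0.0787). Lung libraries gave 1.63, 3.62, 2.19 and 2.18 CPM with shRenilla, 1.43, 1.27, 1.95 and 0.817 with shAsns-2 and 2.63, 1.83, 2.25 and 1.74 with shAsns-1. With shAsns-2 lung was below tumor in every library (-1.78 ± 0.26, adjusted p = 1.32e-05 by edgeR). Lung shRenilla B, at 3.62 CPM, was the 1 control library of that site within the tumor range. The control difference between sites was not called (-0.59 ± 0.24, adjusted p = 0.0862), but was by limma (adjusted p = 0.00193) and without the far pair (0.00481).

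Among the members never called by edgeR, Ccl25 and Cx3cl1 varied least. Ccl25, known for guiding cells to thymus and small intestine through Ccr9, ranged from 11.7 to 16.9 CPM, and its log2 fold change in the 9 comparisons of 2 groups lay between -0.18 and 0.20. Its exons share 204 bases with Elavl1 on the opposite strand, so some of its counts may belong to that gene. Cx3cl1, a membrane-anchored ligand of Cx3cr1 on monocytes and microglia, ranged from 2.30 to 5.77 CPM. Tumor libraries labelled shAsns-1 averaged 4.12 ± 0.664 CPM against 3.20 ± 0.458 in tumor shRenilla (0.36 ± 0.20, adjusted p = 0.155 by edgeR), which limma called (0.41, adjusted p = 0.0349). The 95% intervals of this comparison for Ccl25 (-0.09 to 0.32) and Cx3cl1 (-0.02 to 0.75) lay above the estimated change of each of the 10 members that fell.

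The receptors of these ligands were mostly low in the cells themselves. Of 23 receptor genes, 7 passed the filter on low counts, and Ccr2 and Ccr6 reached at most 2 and 1 counts in any library. Cxcr2 ranged from 1.05 to 3.00 CPM and was called by edgeR in no comparison. In the tumor libraries labelled shAsns-1, 1 receptor was higher and 2 lower than in tumor shRenilla, with a median of -0.41 over the 7 tested. Called receptors were thus 42.9% of those tested, beside 33.9% of all genes. Cxcr7 (also named Ackr3), a receptor that takes up Cxcl11 and Cxcl12 without classical signalling, measured 57.5, 50.1, 47.7 and 35.7 CPM in tumor shRenilla and 21.6, 13.0, 12.1 and 14.4 with shAsns-1 (-1.65 ± 0.22, adjusted p = 2.93e-06 by edgeR). It was 53.4, 50.8, 46.6 and 45.9 CPM in tumor shAsns-2, with no overlap with shAsns-1. The receptor of Cxcl16, Cxcr6, was low and fell too, from 0.978 to 0.212 CPM (-2.15 ± 0.46, adjusted p = 0.000713). Cxcr3 rose from 0.808 to 1.41 CPM (0.79 ± 0.30, adjusted p = 0.0392) and was higher in lung than in tumor with shRenilla (1.70 ± 0.28, adjusted p = 6.73e-05).

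Genes of the NF-κB pathway, many of them both regulators and targets of it, were counted in the same tumor libraries. Of 20 tested, 8 fell and 1 rose against tumor shRenilla (median -0.42, and -0.01 over all genes), the other 11 not being called. That is 45% of the list, beside 33.9% of all genes (17.7% lower). Nfkbia, which encodes the inhibitor IκBα, measured 97.0, 97.3, 96.7 and 90.6 CPM in tumor shRenilla and 56.1, 55.2, 51.2 and 54.4 with shAsns-1 (-0.81 ± 0.13, adjusted p = 1.65e-05 by edgeR), and Tnfaip3, which encodes the feedback inhibitor A20, fell from 112 to 46.3 CPM (-1.27 ± 0.15, adjusted p = 3.01e-07). The count was 0 of 20 with tumor shAsns-2 by edgeR (1 at an unadjusted p under 0.05, other tools not run for this list). Lung against tumor gave 9 lower and 1 higher with shRenilla, 10 lower and 0 higher with shAsns-2, and 0 lower and 1 higher with shAsns-1. The called shares were 50%, 50% and 5%, beside 21.8, 20.9 and 8.55% of all genes. The change with shAsns-1 differed between sites for 4 genes, all in the direction of lung: Nfkbia, Nfkbib, Rel and Tnfaip3 (0.95 ± 0.21, adjusted p = 0.00289, for the last), 20% of the list beside 14.2% of all genes.

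Of the upstream cytokines and receptors, 7 rose and 4 fell of 17 tested in the tumor libraries labelled shAsns-1, so the list did not move one way (median -0.08). Called genes were 64.7% of the list, beside 33.9% of all genes (16.2% higher, 17.7% lower). Il1a, the gene for interleukin-1α, measured 8.90, 10.9, 7.68 and 13.8 CPM in tumor shRenilla and 1.72, 1.12, 2.42 and 1.44 with shAsns-1, with no overlap (-2.60 ± 0.22, adjusted p = 1.81e-09 by edgeR). It was also lower in lung than in tumor with shRenilla (-1.32 ± 0.21, adjusted p = 3.08e-05) and with shAsns-2 (-1.84 ± 0.22, adjusted p = 7.48e-07), and higher in lung with shAsns-1 (1.06 ± 0.23, adjusted p = 0.00484). Il33 and Il18, of the interleukin-1 family as well, moved the other way in tumor cells labelled shAsns-1, from 0.337 to 2.35 CPM (2.79 ± 0.49, adjusted p = 9.13e-05) and from 2.29 to 7.47 CPM (1.70 ± 0.20, adjusted p = 3.24e-07). Interferon-response genes gave 5 lower and 0 higher of 16 tested (median -0.08). Called genes were 31.2% of the list, all of them lower, beside 33.9% of all genes (17.7% lower, 16.2% higher). Called or not, 8 of the 16 had a positive and 8 a negative log2 fold change. The 18 genes of the list summed to 156 to 173 CPM with shAsns-1 and 214 to 245 in tumor shRenilla. The called genes included the receptor chain Ifngr1 (-1.19 ± 0.18, adjusted p = 1.29e-05) and the transcription factor Irf1 (46.3 to 27.1 CPM, -0.77 ± 0.13, adjusted p = 3.49e-05).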

How the data were processed

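RNA-seq counts per gene symbol were deposited for 24 libraries, prepared from Trizol RNA with the NuGEN Ovation RNAseq V2 kit per the labels. Per the submitters' processing notes the authors used Bowtie2, HTSeq and the mouse build mm10, and the deposited values are raw, whole-number counts. Versions, gene annotation and strand setting are not given in the sources used here.

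The table was fitted whole with edgeR 4.0.16 in R 4.3.3: filterByExpr (minimum count 10), TMM scaling, 1 quasi-likelihood model over the 6 groups, 11 contrasts, and Benjamini-Hochberg adjustment over the 12625 genes tested. CPM are TMM-scaled, and intervals are the estimate ± 1.96 SE. Members called in any contrast are given by library, the others by range, and companion lists by counts and up to 3 called genes per contrast. Alternatives were DESeq2 1.42.0 as a test and as size factors, limma 3.58.1 with library weights, other filters, fewer groups, a replicate block, and leaving out libraries. Positions and exon lengths come from GENCODE M21 (GRCm38), which matched 36 of the 37 members by symbol, and promoters from RefSeq. Calls were checked on simulated data, with 67, 67 and 66 of 12625 genes changed by 1.5, 2 and 4-fold in 1 group. In the simulated comparisons of 2 groups, 43.3 to 58.2% of 1.5-fold and 82.1 to 89.6% of 2-fold changes were called. For the difference between sites with shAsns-1 it was 11.9 and 64.2%, so smaller changes can go uncalled. The real comparison of tumor shAsns-1 with tumor shRenilla called 4278 genes, more than were changed in the simulation. Fewer were called in tumor shAsns-2 against tumor shRenilla (8) and in lung. The lung counts were 26 for shAsns-1 and 0 for shAsns-2 against shRenilla, and 33 for shAsns-1 against shAsns-2. With fewer changed genes the adjustment is stricter, so the simulated shares do not carry over to these comparisons. The members and lists were chosen with earlier results of these data known.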

Additional observations from a re-analysis of the deposited data

Results flagged for a closer look

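Of 102 groups of 4 libraries (17 expressed members in 6 groups), 5 held a library far from the other 3, and chance flags about 1 in 20 groups. Ccl4 was 1.627 CPM in lung shAsns-2 C, with the other 3 at 0.6967 to 0.8359. Cx3cl1 was 3.901 CPM in lung shRenilla A, against 3.516 to 3.56. Cxcl9 was 1.95 CPM in lung shAsns-2 B, against 0.2843 to 0.3255. In lung shAsns-1 D, Cxcl10 was 17.88 CPM and Cxcl11 was 2.818, against 9.068 to 10.28 and 0.4548 to 0.7005 in libraries A to C.

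For 8 members, the change from shRenilla to shAsns-1 was more positive in lung than in tumor by the interaction term in edgeR. The differences on the log2 scale were 3.655 for Ccl6, 2.342 for Cxcl2, 2.198 for Cxcl16, 1.652 for Cxcl1, 1.627 for Cxcl3, 1.353 for Ccl4, 1.344 for Cxcl10 and 0.9838 for Cxcl5. Asns was higher, not lower, in the libraries labelled shAsns-1 at both sites.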

How the results depend on the processing

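For lung shAsns-1 against lung shRenilla (1 member called) the count was 2 by limma, and 0 without a filter, when other groups were left out, with a replicate block and without the far pair of libraries. For lung shAsns-2 against lung shRenilla (0) it was 6 by limma. For lung shAsns-1 against lung shAsns-2 (1) it was 2 by DESeq2, 10 by limma, 0 when other groups were left out and 2 without the far pair. Leaving out 1 library at a time gave 0 to 1, 0 to 0 and 0 to 2 members in these 3 comparisons. In tumor cells it gave 8 to 10 for shAsns-1 against shRenilla, 7 to 8 for shAsns-1 against shAsns-2 and 0 to 0 for shAsns-2 against shRenilla. Lung against tumor gave 4 to 6 with shRenilla, 5 to 6 with shAsns-1 and 7 to 9 with shAsns-2, and the difference between sites 7 to 9 for shAsns-1 and 0 to 0 for shAsns-2. Each called value was refitted under 16 alternatives, or 24 for the difference between sites. Counted as pairs of a called value and an alternative, 743 kept direction and call, 41 lost the call and 0 changed direction. The 41 fell on Ccl9 and Ccl20 in tumor shAsns-1 against tumor shRenilla, and on Ccl6 within lung. The rest fell on Cxcl16 (shAsns-1) and Cxcl2 (shAsns-2) in lung against tumor, and on Ccl4 in the difference between sites. Deviations from the group mean were correlated between libraries of different groups. Pairs of the same letter had r from -0.415 to 0.465 (median 0.012, over 0.1 in 16 of 60 pairs). Pairs of different letters had r from -0.385 to 0.581 (median 0.00109, over 0.1 in 46 of 180). These values do not show what the letters stand for. The replicate block ended 1 call, that of Ccl6 in lung shAsns-1 against lung shRenilla (adjusted p = 0.0509). It added 1, Ccl2 in tumor shAsns-1 against tumor shAsns-2 (0.0447). Without a filter, Ccl11, Cxcl12 and Cxcl14 were called higher in lung than in tumor with shAsns-1, and by DESeq2 the last pair, with 15, 32 and 21 counts in lung shAsns-1 D. Depth limits Cxcl9 and Cxcl11, which had as few as 2 and 1 counts in a library.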

Other observations

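Chemokines named outside the Ccl and Cxcl symbols were described separately. Ppbp, the precursor of a platelet chemokine that binds Cxcr2, measured 3.93, 3.42, 2.97 and 3.71 CPM in tumor shRenilla and 2.06, 1.27, 2.17 and 1.61 in the tumor libraries labelled shAsns-1 (-0.97 ± 0.20, adjusted p = 0.000575 by edgeR). Pf4, the gene of platelet factor 4, measured 0.0379, 0.0962, 0.179 and 0.149 CPM in lung shRenilla and 0.571, 0.272, 0.455 and 1.16 with shAsns-1 (2.33 ± 0.50, adjusted p = 0.0437 by edgeR). Both lists of 4 run in the order of libraries A to D. Pf4 was near the floor, with at most 30 counts, in lung shAsns-1 D, and no count in 1 library. Its call and that of Ppbp were not examined under the alternatives.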
